A study of Mus musculus with 4 samples.

Results

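The genes described here encode the sodium pump beta subunits and the transporters and channels by which inner ear epithelia secrete potassium into endolymph. They were taken by gene symbol: Atp1b1, Atp1b2, Atp1b3, Slc12a2, Kcnq1, Kcne1 and Bsnd, which are 7 of the 24346 symbols measured. Expression was measured by RNA sequencing of polyadenylated RNA in freshly isolated, cultured cells of the mouse inner ear, 2 libraries from vestibular cells and 2 from cochlear cells, to compare gene expression between these parts of the organ. No treatment, genotype or transgene is named for either group, and the sources used here do not give strain, age, sex or days in culture. The labels do not say whether the 2 libraries of a group came from separate animals or cultures, so any p-value measures only the spread between these libraries, which may be technical.

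Endolymph, the fluid that bathes the tips of hair cells, is rich in potassium. It is kept so by marginal cells of the cochlear stria vascularis and by vestibular dark cells. On the side facing away from endolymph, the sodium pump (Na,K-ATPase) and the Na-K-Cl cotransporter NKCC1, encoded by Slc12a2, load these cells with potassium, and chloride leaves again through chloride channels that need the subunit barttin, encoded by Bsnd. On the endolymph side potassium leaves through the channel formed by the pore subunit KCNQ1 and its partner KCNE1. The pump and NKCC1 also serve other cells of the inner ear, among them fibrocytes of the spiral ligament, whereas KCNE1 and barttin are closer to defining the secreting epithelium.

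Across the cultures these genes did not form a single pattern. Atp1b1 and Kcnq1 were higher in both cochlear than in both vestibular libraries, Slc12a2 and Atp1b3 were higher in both vestibular libraries, Atp1b2 overlapped between groups, and Kcne1 and Bsnd were near 0 in every library but vestibular 2. None of these differences passed the test across all genes. Vestibular library 2 had the lowest Atp1b1 and Kcnq1 and the highest value of each of the other 5 genes, as the plot of values by library shows.

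**Figure D1:**
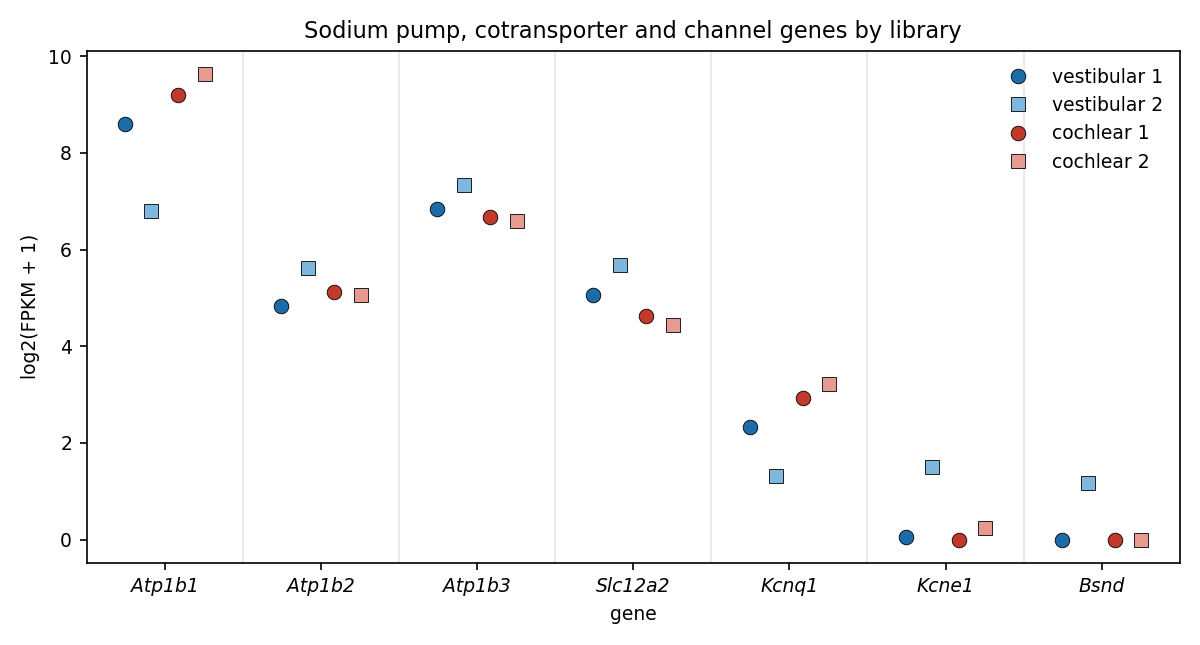
Levels of the 7 genes (horizontal axis) in each library, as log2(FPKM + 1) on the vertical axis. Blue points are the vestibular and red points the cochlear libraries, with circles for library 1 and squares for library 2. The vestibular 2 square is the lowest point for Atp1b1 and Kcnq1 and the highest for the other 5 genes.

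Values are FPKM (fragment counts corrected for transcript length and sequencing depth), so levels of different genes can be set side by side. The FPKM totals ran from 479380 to 519122 per library, and 12644 to 13094 genes had at least 1 FPKM. Fragment numbers were not used here, but low values show the relative depth. Among genes under 0.3 FPKM in both libraries of a pair, 64.8% to 67.2% lay within 0.1 percent of the commonest ratio between the libraries or a small whole-number ratio of it. By that ratio 1 fragment was worth 1.161 times as much FPKM in vestibular 1, 1.044 times in vestibular 2 and 1.023 times in cochlear 1 as in cochlear 2, so the depths of the libraries lay close together. Every library lists Rpl26, a ribosomal protein gene that every cell uses, at 0, so a value of 0 is given only as listed at 0.

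Groups were compared with limma on log2(FPKM + 1) over the 13200 genes with a mean of at least 1 FPKM. Log2 differences are given as vestibular minus cochlear and come out too small for low genes because of the added 1. Of the 7 genes, 5 were kept and 0 passed an adjusted p of 0.05, against 4 of all genes kept (0.0303%). At an unadjusted p under 0.05 there were 2 of the 5, Slc12a2 and Kcnq1, against 18.2% of all genes kept. These differences depended on single libraries. Without vestibular 2 they were 0.52 for Slc12a2 and -0.74 for Kcnq1, and without vestibular 1 they were 1.14 and -1.75. The groups did not overlap for 4 of the 5, beside 55.3% of all genes kept. Of these, 2 were higher in vestibular cultures (26.9% of all genes kept) and 2 lower (28.4%). Kcne1 and Bsnd had means under 1 FPKM and were not tested. The median log2 difference of the 5 was 0.12, and that of all genes kept 0.01. With 2 libraries against 2, the smallest p of an exact 2-sided permutation test is 0.333, so no single gene can pass by permutation.

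The beta subunit is a glycoprotein that escorts the catalytic alpha subunit to the cell membrane and tunes its affinity for potassium. Atp1b1 encodes beta 1, the common form of epithelia, which also joins neighbouring cells. It stood at 389 FPKM in vestibular 1, 110 in vestibular 2, 590 in cochlear 1 and 792 in cochlear 2. It was the highest of the 7 genes in every library except vestibular 2, where Atp1b3 was higher. Both vestibular values lay below both cochlear values, and the vestibular libraries differed from each other more than the cochlear ones did. The means were 249 ± 197 and 691 ± 143 FPKM (SD, n = 2 each). The log2 difference was -1.72 (SE 0.69, 95% interval -3.71 to 0.27, limma adjusted p 0.309), so it did not pass the test across all genes. Without vestibular 2 it was -0.81 and without vestibular 1 it was -2.63.

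Atp1b3 encodes beta 3, a widely expressed form. It stood at 113 and 162 FPKM in vestibular 1 and 2, and at 102 and 96.0 in cochlear 1 and 2. The groups did not overlap, but vestibular 1 was only slightly above cochlear 1. The log2 difference was 0.45 (SE 0.21, 95% interval -0.16 to 1.06, limma adjusted p 0.361).

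Atp1b2 encodes beta 2, known from glia as an adhesion molecule and also present in marginal cells of the stria. It stood at 27.4 FPKM in vestibular 1, 47.9 in vestibular 2, 34.0 in cochlear 1 and 32.4 in cochlear 2. The cochlear values lay between the vestibular ones. The log2 difference was 0.12 (SE 0.30, 95% interval -0.74 to 0.99, limma adjusted p 0.845), and without vestibular 2 its sign turned, at -0.27.

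Set against each other within a library, where scaling between libraries plays no part, the beta genes were mixed in different proportions. Atp1b1 made up 73.5% of the summed FPKM of the 3 genes in vestibular 1, 34.4% in vestibular 2, 81.3% in cochlear 1 and 86.1% in cochlear 2. Atp1b3 took 21.4% and 50.6% in vestibular 1 and 2, against 14.0% and 10.4% in cochlear 1 and 2. The share of Atp1b2 was 5.17% and 15.0% against 4.68% and 3.52%. Each gene's shares did not overlap between groups, with Atp1b1 lower and the others higher in the vestibular libraries. The shares of a library depend on each other, so these are not separate results, and the FPKM of Atp1b2 itself overlapped between groups. The Atp1b1 share averaged 53.9% ± 27.6 in vestibular and 83.7% ± 3.36 in cochlear libraries (SD, n = 2 each), a difference of -29.8 percentage points. The exact permutation p is 0.333, the smallest this design allows. Without vestibular 2 the difference was -10.2 percentage points.

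**Figure D2:**
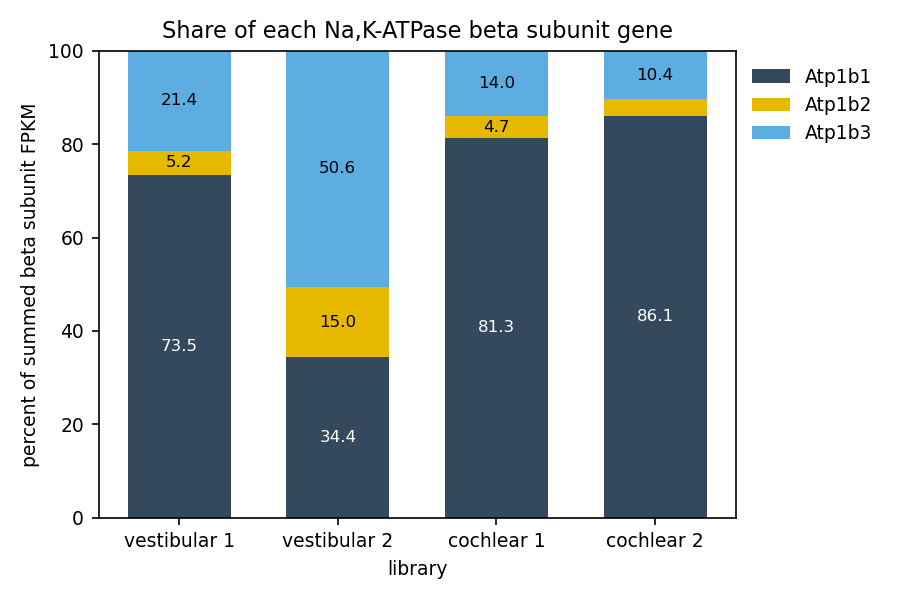
Share of Atp1b1, Atp1b2 and Atp1b3 in their summed FPKM (vertical axis, percent), 1 stacked bar for each library on the horizontal axis. Atp1b1 fills 73.5% to 86.1% of the bar in 3 libraries and 34.4% in vestibular 2, where Atp1b3 fills 50.6%.

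The promoters of Atp1b1 and Atp1b3 are shown because these genes lay on opposite sides of the comparison. They were found in the RefSeq promoter table (2 of the 7 genes, build GRCm38.p6), and the 239 bases from -250 to -12 relative to the annotated start are printed 5′ to 3′ on the minus strand, which is the strand of both genes. Capitals mark matches on either strand to the motifs GGGCGG (GC box), CCAAT and TATATA. The windows are chr1:164458367-164458605 for Atp1b1 and chr9:96364443-96364681 for Atp1b3, and neither crosses an exon of the GENCODE M21 annotation.
Atp1b1: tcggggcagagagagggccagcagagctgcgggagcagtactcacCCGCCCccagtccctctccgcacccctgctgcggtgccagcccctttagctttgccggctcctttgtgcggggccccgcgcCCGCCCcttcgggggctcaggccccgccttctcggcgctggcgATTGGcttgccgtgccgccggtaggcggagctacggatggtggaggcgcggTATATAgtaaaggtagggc
Atp1b3: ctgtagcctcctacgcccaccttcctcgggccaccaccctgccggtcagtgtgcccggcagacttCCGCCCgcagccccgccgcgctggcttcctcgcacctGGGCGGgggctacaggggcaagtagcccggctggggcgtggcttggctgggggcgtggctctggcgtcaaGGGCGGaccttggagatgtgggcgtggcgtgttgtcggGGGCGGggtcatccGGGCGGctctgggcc

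The Atp1b1 window holds TATATA, with its first base 30 before the start, CCAAT on the other strand at 81 bases and GGGCGG on the other strand at 205 and 124 bases. The Atp1b3 window holds neither TATATA nor CCAAT but has 5 matches to GGGCGG, at 185, 148, 78, 40 and 26 bases before the start, the first of them on the other strand. Of 32841 windows of the same length, 5.13% hold TATATA, 33.0% CCAAT and 31.2% GGGCGG. The E-box letters CAGGTG, present in 16.6% of windows, were found on the other strand of Atp1b3 at 153 bases, where they overlap a GC box by 1 base, and not in the Atp1b1 window. The wider form CANNTG, in 64.8% of windows, gave the same result, and AAGGTCA and TATAAA (3.93% and 12.0% of windows) were in neither. Both windows are rich in G and C, at 70.3% and 73.6%, against a median of 52.3%. These matches are descriptions of the letters only.

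Of 10 other pump genes and FXYD regulators of the pump, 5 were kept, 0 passed in either direction and 2 had an unadjusted p under 0.05 in limma (18.2% of all genes kept). Their median log2 difference was 1.65, and the groups did not overlap in 2 of the 5, against 55.3% of all genes kept. FXYD proteins are small membrane proteins that adjust the pump's kinetics. Fxyd1, phospholemman, stood at 97.4 and 58.6 FPKM in vestibular cultures against 31.8 and 17.2 in cochlear cultures (log2 difference 1.65, SE 0.42, limma adjusted p 0.215). Fxyd2, the gamma subunit of kidney, stood at 76.4 and 57.3 against 16.6 and 1.49 FPKM (3.34, SE 1.05, adjusted p 0.250). Both were higher in both vestibular libraries. Fxyd5, for dysadherin, was lowest in cochlear 2, with 6.72 FPKM there, 111 in cochlear 1, 102 in vestibular 1 and 90.5 in vestibular 2. That library also stood apart in macrophage markers, whose summed FPKM over 8 genes was 22.6 there and 5889 to 7664 in the others, and their part in the Fxyd5 value was not tested. Fxyd6 followed neither group, at 7.07 FPKM in vestibular 1, 76.0 in vestibular 2, 155 in cochlear 1 and 47.0 in cochlear 2.

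Slc12a2 encodes NKCC1, which brings in sodium, potassium and chloride together. It stood at 32.2 FPKM in vestibular 1, 50.2 in vestibular 2, 23.7 in cochlear 1 and 20.8 in cochlear 2. Both vestibular values lay above both cochlear values. The means were 41.2 ± 12.7 and 22.3 ± 2.09 FPKM (SD, n = 2 each). The log2 difference was 0.83 (SE 0.26, 95% interval 0.09 to 1.56, limma adjusted p 0.247), and without vestibular 2 it was 0.52. Against Atp1b1 in the same library, the gap was wide: Atp1b1 was 12.1 and 2.19 times Slc12a2 in vestibular 1 and 2, and 24.9 and 38.1 times in cochlear 1 and 2.

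Among 13 other cation-chloride cotransporters and WNK-pathway kinases, 8 were kept, 0 passed and 4 had an unadjusted p under 0.05 in limma (18.2% of all genes kept). The groups did not overlap in 5 of the 8 (55.3% of all genes kept), 1 higher and 4 lower in vestibular cultures, and the median log2 difference was -0.28. Stk39 encodes SPAK, the kinase that phosphorylates and switches on NKCC1. It stood at 24.0 and 31.9 FPKM in vestibular cultures against 105 and 134 in cochlear cultures, the opposite side to Slc12a2 (log2 difference -2.06, SE 0.21, limma adjusted p 0.0955). Its relative Oxsr1 did not follow it, at 13.6, 15.3, 15.4 and 14.7 FPKM. Slc12a7 encodes the potassium-chloride cotransporter KCC4, which carries ions outward and whose loss causes deafness in mice. It stood at 30.5 and 23.1 against 62.0 and 69.3 FPKM (log2 difference -1.27, SE 0.18, adjusted p 0.122). Slc12a4, for KCC1, was higher in both vestibular libraries, at 39.6 and 50.5 against 34.4 and 36.2 FPKM. The kinase gene Wnk1 overlapped between groups (55.7 to 78.0 FPKM), while Wnk2 had 4.06 and 4.11 against 6.09 and 6.30 FPKM. Slc12a1, the kidney relative of Slc12a2, is listed at 0 throughout.

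**Figure D3:**
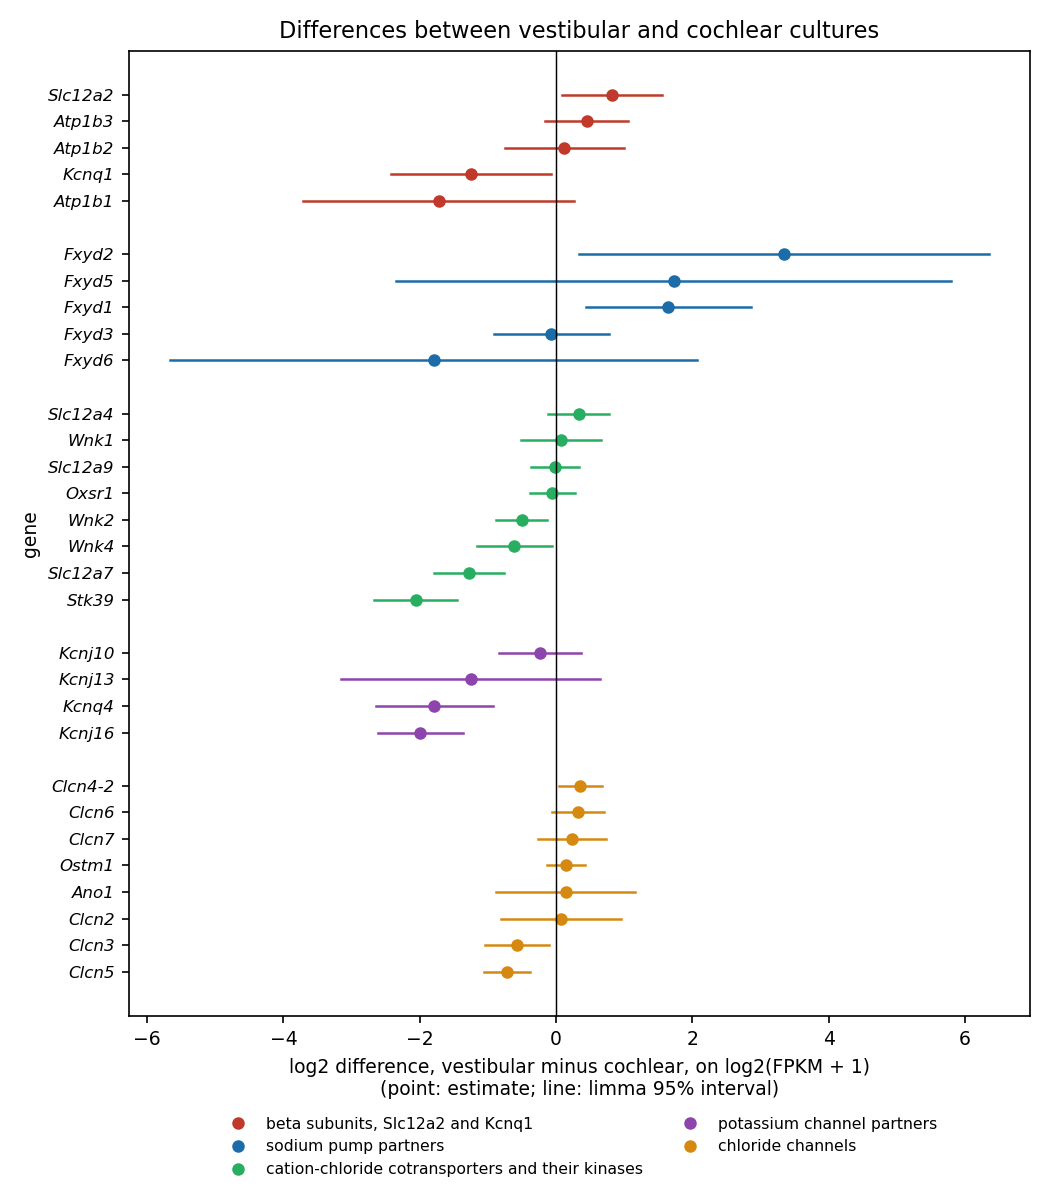
Log2 differences, vestibular minus cochlear, on log2(FPKM + 1) (horizontal axis) for the kept genes of the pump, cotransporter and channel groups (vertical axis), with limma 95% intervals as lines and a colour for each group. Slc12a2 (0.83) and Stk39 (-2.06) lie on opposite sides of 0, as do Atp1b1 (-1.72) and Atp1b3 (0.45).

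Kcnq1 encodes the pore subunit of the potassium channel on the endolymph side, and its loss in people causes deafness with cardiac arrhythmia. It stood at 4.05 FPKM in vestibular 1, 1.502 in vestibular 2, 6.64 in cochlear 1 and 8.31 in cochlear 2. Both vestibular values lay below both cochlear values, in the same order of libraries as Atp1b1. The means were 2.77 ± 1.80 and 7.48 ± 1.18 FPKM (SD, n = 2 each). The log2 difference was -1.25 (SE 0.41, 95% interval -2.42 to -0.08, limma adjusted p 0.259), and without vestibular 2 it was -0.74. Kcnq1 amounted to 1.04%, 1.37%, 1.13% and 1.05% of Atp1b1 in vestibular 1, vestibular 2, cochlear 1 and cochlear 2, although the highest value was 5.53 times the lowest for Kcnq1 and 7.22 times for Atp1b1. That near-constant ratio is a description over 4 libraries, chosen after the values were seen.

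Kcne1 encodes the partner that gives the channel its slow opening and is needed for endolymph secretion. It stood at 1.82 FPKM in vestibular 2, 0.184 in cochlear 2 and 0.0355 in vestibular 1, and is listed at 0 in cochlear 1. After scaling by the value of 1 fragment in each library, the cochlear 2 and vestibular 2 values were 6 and 57 times the vestibular 1 value, within 0.00236 of whole numbers. If 1 fragment lay behind the vestibular 1 value, then 57 lay behind that of vestibular 2. Per FPKM of Kcnq1 there was 1.21 FPKM of Kcne1 in vestibular 2, 0.0221 in cochlear 2 and 0.00878 in vestibular 1. The pore and its partner therefore went opposite ways in vestibular 2.

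Bsnd encodes barttin. It stood at 1.24 FPKM in vestibular 2 and is listed at 0 in the other 3 libraries, so no fold is given.

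Of 12 other potassium channel subunits in the files 4 were kept, and of 9 genes in the chloride channel list 8. None passed, and 2 and 3 had an unadjusted p under 0.05 in limma, against 18.2% of all genes kept. The median log2 differences were -1.52 and 0.14. The inward rectifier gene Kcnj10, whose channel sets the endocochlear potential in intermediate cells of the stria, overlapped between groups, at 5.98 and 8.004 FPKM in vestibular cultures against 9.39 and 7.39. Kcnj16, for a subunit that pairs with it, stood at 0.583 and 0.855 against 6.57 and 5.12 FPKM (log2 difference -1.99, SE 0.22, adjusted p 0.105). Kcnj13 had 0.642 and 4.54 against 5.66 and 6.72 FPKM. Other KCNE genes that could pair with KCNQ1 were low, with Kcne2, Kcne3 and Kcne4 at most 1.06, 0.759 and 1.16 FPKM in any library. Kcne1 was low too, and stood above all of them only in vestibular 2. The highest of them in vestibular 1 was Kcne4, at 1.16 against 0.0355 FPKM of Kcne1. It was Kcne3 in cochlear 1 (0.759, with Kcne1 listed at 0) and Kcne2 in cochlear 2 (0.668 against 0.184). In the chloride channel list, the groups did not overlap in 6 of 8 genes, against 55.3% of all genes kept. Clcn4-2, Clcn6, Clcn7 and Ostm1 were higher and Clcn3 and Clcn5 lower in both vestibular libraries. Ostm1 is not itself a channel gene. The endosomal exchanger gene Clcn5 stood at 7.80 and 7.13 against 13.0 and 12.8 FPKM (log2 difference -0.72, SE 0.12, limma adjusted p 0.137). Clcn3 had 14.1 and 11.3 against 17.8 and 20.7 FPKM, and Clcn4-2 31.1 and 33.7 against 26.1 and 24.1. Clcn6, Clcn7 and Ostm1 had log2 differences of 0.32, 0.24 and 0.15.

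Markers of some cell types, but not of all, were highest or lowest in the same libraries as these genes. Of 11 epithelial markers kept, 10 were lowest in vestibular 2, the library with the lowest Atp1b1 and Kcnq1 (29.8% of all genes kept were lowest there). The exception was Cdh1, at 32.2 FPKM in vestibular 1 and 33.9 in vestibular 2. Summed over 12 markers, epithelial genes stood at 1041 FPKM in vestibular 1, 107 in vestibular 2, 2020 in cochlear 1 and 2410 in cochlear 2, the same order of libraries as Atp1b1 and Kcnq1. The keratin genes Krt8 and Krt18 stood at 10.5 and 11.6 FPKM in vestibular 2, against 297 to 687 and 305 to 719 elsewhere. The claudin gene Cldn4 stood at 15.0 in vestibular 2 and 158 to 226 elsewhere. All 11 epithelial markers kept were highest in cochlear 2, as were Atp1b1 and Kcnq1 (3805 of all 13200 genes kept were highest there). All 8 macrophage markers were lowest in cochlear 2 (3704 of all genes kept). The part of epithelial or macrophage content in the Atp1b1 and Kcnq1 values was not tested. In bulk cultures, fewer cells of a type and less RNA per cell cannot be told apart.

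Otic fibrocyte markers went the other way, and 8 of 9 were highest in vestibular 2, the library with the highest Atp1b2, Atp1b3, Slc12a2, Kcne1 and Bsnd (30.1% of all genes kept were highest there). Their summed level was 3673 FPKM in vestibular 2 and 510 to 789 in the others. The exception, Slc4a11, was highest in cochlear 2 (9.04 FPKM). The likeness did not extend to vestibular 1, where 4 of the 9 markers (Coch, Tbx18, Gjb2 and Gjb6) were lowest. Atp1b2 was lowest there too, but Atp1b3 and Slc12a2 lay above both cochlear libraries. Between groups, 6 of the 9 markers overlapped. Coch, the cochlin gene, stood at 797 FPKM in vestibular 2 and 56.5 to 127 elsewhere, Otor at 427 and 71.1 to 109, and Car3 at 1569 and 148 to 500. Melanocyte markers, which also mark the intermediate cells next to marginal cells, summed to 241 FPKM in vestibular 2 and 17.5 to 23.0 elsewhere, with most of that sum from Dct. Of 8 kept, 5 were highest in vestibular 2, namely Tyr, Tyrp1, Dct, Mlana and Pmel. Mitf was highest in vestibular 1 (8.14 FPKM), Kcnj10 in cochlear 1 (9.39) and Kit in cochlear 2 (9.25). Dct, a melanin synthesis gene, stood at 166 FPKM in vestibular 2, 0.561 in vestibular 1 and is listed at 0 in both cochlear libraries, and Mlana stood at 25.3 FPKM in vestibular 2. Fibroblast markers (Sparc, Col1a2 and Dcn foremost) summed to 11628 FPKM in vestibular 2 and 2306 to 5290 elsewhere. Of 9 kept, 7 were highest in vestibular 2, but Col1a1 and Thy1 were highest in vestibular 1. Those genes stood at 371 and 340 FPKM in vestibular 1, against 134 and 205 in vestibular 2. Cartilage markers (Col2a1, Col9a1 and Col11a1 foremost) summed to 4204 FPKM in vestibular 2 and 191 to 752 elsewhere. The part of these cells in the values of the 5 genes was not tested.

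**Figure D4:**
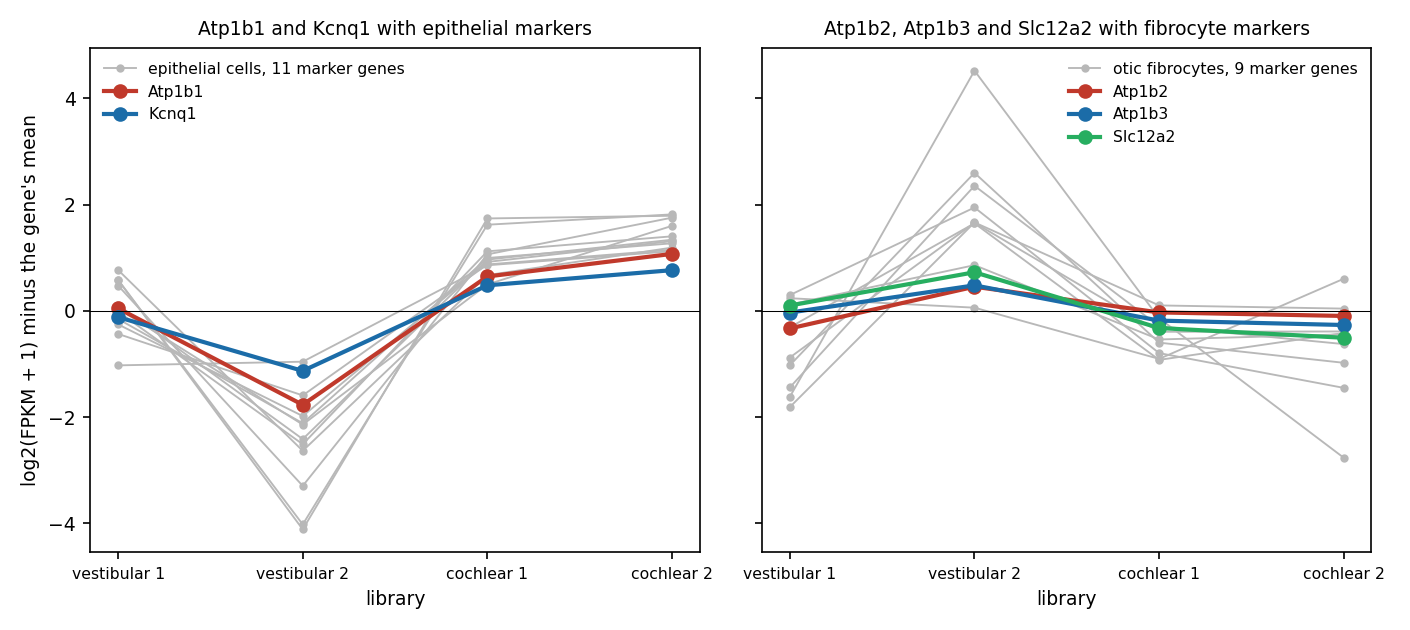
Deviation of log2(FPKM + 1) from each gene's mean (vertical axis) in the 4 libraries (horizontal axis). Grey lines are the kept epithelial (left, 11 genes) and otic fibrocyte markers (right, 9 genes), coloured lines the pump, cotransporter and channel genes, and lines only link points of 1 gene. In vestibular 2, Atp1b1 and Kcnq1 lie below their means like the epithelial markers, and Atp1b2, Atp1b3 and Slc12a2 above theirs.

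The list of dark and marginal cell markers holds 8 genes, but 5 of them are genes described above (Kcnq1, Kcne1, Bsnd, Slc12a2 and Atp1b2), so it gives little separate information. Of the other 3, Esrrb was highest and Lmx1a and Car12 lowest in vestibular 2, and their summed level was 11.7 FPKM in vestibular 1, 6.67 in vestibular 2, 81.1 in cochlear 1 and 64.6 in cochlear 2. Neuron, hair cell and endothelial markers were low, with summed levels of at most 18.04, 16.4 and 14.4 FPKM in any library. Several genes of these lists were under 1 FPKM in every library: 5 of 8 for neurons (Snap25 and Rbfox3 among them), 4 of 8 for hair cells (Gfi1, Atoh1, Slc17a8 and Tmc1) and 3 of 6 for endothelium (Pecam1, Cldn5 and Tie1). Others were not. Cdh5 of endothelium stood at 10.7 FPKM in vestibular 2 and at most 0.915 elsewhere. The other endothelial genes kept, Kdr and Tek, were not highest in vestibular 2. Kdr was highest in vestibular 1 (4.85 FPKM) and lowest in vestibular 2 (0.808). Tek was highest in cochlear 2 (6.002 FPKM), with 2.58 in vestibular 2. Myo7a of hair cells stood at 5.81 to 13.4 FPKM. Tubb3 and Stmn2 of neurons were higher in both vestibular libraries. Tubb3 stood at 7.67 and 7.33 against 3.11 and 1.25 FPKM, and Stmn2 at 8.15 and 2.50 against 0.762 and 0.266. The part of these cells was not tested. Glial markers were split. Of 8 kept, 4 were highest in vestibular 2, as Atp1b2 was, and 2, Mbp and Sox10, were lowest there. They summed to 394 FPKM in vestibular 2 and 196 to 258 elsewhere, with S100b at 178 FPKM in vestibular 2 and 2.36 to 14.2 elsewhere. Without S100b, which was left out after its values were seen, the sum was 216 FPKM in vestibular 1, 216 in vestibular 2, 254 in cochlear 1 and 194 in cochlear 2. Their part in the Atp1b2 value was not tested.

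The most similar patterns over the 4 libraries were sought among 9719 genes with a mean of at least 5 FPKM, by the root mean square difference of centred log2 values. For Atp1b1 they were Ppl (0.04), Lsr (0.05) and Cdcp1 (0.08). Ppl, the periplakin gene, stood at 6.90 and 1.12 FPKM in vestibular cultures against 10.4 and 13.8 in cochlear cultures. For Kcnq1 they were Sytl1 (0.05), Stap2 (0.06) and Hook1 (0.06), for Slc12a2 Copz2 (0.02), Tsc22d3 (0.03) and Cald1 (0.03). Tsc22d3, a glucocorticoid-induced gene, stood at 11.8 and 18.6 FPKM against 8.89 and 7.67. For Atp1b3 they were Eogt (0.02), Dag1 (0.03) and Mmp14 (0.03), and for Atp1b2 Pam (0.03), Cyp1b1 (0.04) and Rfk (0.05). With 4 libraries, many genes can share a pattern by their level in vestibular 2 alone.

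Overlapping genes touch some of these values, since the sources used here do not give the strand setting of the counting. The last 617 bases of Atp1b1 (mm10, chromosome 1, 164437109 to 164458355) overlap Nme7 of the other strand, which stood at 6.65 to 9.47 FPKM, far below Atp1b1. Kcnq1 (chromosome 7, 143106362 to 143427042, plus strand) spans the imprinted antisense RNA Kcnq1ot1, at 0.265 to 0.3998 FPKM, along with other noncoding transcripts. In GENCODE M21, Kcnj13 overlaps Gigyf2 of the other strand (18.1 to 20.2 FPKM). Atp1b2, Atp1b3, Slc12a2, Kcne1 and Bsnd overlap no other annotated gene.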

How the data were processed

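RNA was measured in 4 libraries of cultured mouse inner ear cells, 2 vestibular and 2 cochlear, made with a stranded mRNA kit per the labels' protocols. The deposited values are FPKM, 1 per gene symbol and library, per the file headers. Per the submitters' processing notes, the authors used Cuffdiff 2.2.1, Bowtie2 2.2.8, TopHat2 2.1.1 and SAMtools 0.1.18, with mm10 as the build. The sources used here do not give settings, annotation or scaling. FPKM depends on the transcript model, and no count model was used.

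Genes with a mean of at least 1 FPKM over the 4 libraries were kept (13200 of 24346). Values were taken as log2(FPKM + 1) and tested 2-sided with limma (version 3.58.1, under R 4.3.3), using moderated variances with an intensity trend. P-values were adjusted by Benjamini-Hochberg over all genes kept at a threshold of 0.05, and the prior degrees of freedom were 1.71. The fit was also run on simulated data with spreads shuffled among genes, and that run is not used as support here. Shares and ratios were taken within a library.

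The members and lists were chosen with earlier results of these data known. Each list is described by counts and its median, and some genes of these lists are not reported here and were left out of those counts. Genes named beside the members were drawn from, per list, the 3 kept genes with the highest mean, and in lists of partner genes those with groups that do not overlap and a mean of at least 5 FPKM in the higher group. Others were chosen after their values were seen (Oxsr1, Slc12a1, Kcne2, Kcne3, Kcne4, Esrrb, Car12, Cdh1, Tbx18, Gjb2, Gjb6, Slc4a11, Col1a1, Thy1, Tyr, Tyrp1, Pmel, Mitf, Kit, Mbp and genes named at or near 0). Overlaps came from GENCODE M21 (23310 symbols matched) and promoters from RefSeq, both on GRCm38, the assembly mm10 names. Alternatives were pseudocounts, filters, scalings, no trend, a replicate block and leaving out each library.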

Additional observations from a re-analysis of the deposited data

How the results depend on the processing

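None of the 5 genes tested passed the threshold of limma under any of the 13 alternatives, with adjusted p from 0.113 to 0.960. Of 65 recomputed log2 differences 64 kept their sign. Atp1b2 turned to -0.27 without vestibular 2. Ranges were -2.63 to -0.81 for Atp1b1, -0.27 to 0.52 for Atp1b2, 0.19 to 0.71 for Atp1b3, 0.52 to 1.14 for Slc12a2 and -1.75 to -0.70 for Kcnq1. The smallest difference came with a pseudocount of 5 for Kcnq1, and without vestibular 2 for Atp1b1, Atp1b3 and Slc12a2. All genes called numbered 4 (3 to 5 under pseudocounts, a mean of at least 5 FPKM, scalings and no trend), and 2 with no filter on low values (18257 genes tested), 0 with the replicate block and 0 to 0 on leaving out each library. The count of these 5 genes at an unadjusted p under 0.05 in limma was 2 in the report. It was 1 with a pseudocount of 0.1 (2380 of all 13200 genes kept) and 1 with a mean of at least 5 FPKM (1867 of 10006). It was 0 with the replicate block (1887 of 13200). Under the other 6 alternatives that kept every library it was 2, beside 2272 to 2977 of all genes tested. One of these, no filter on low values, also tested Kcne1 and Bsnd, so its count was of 7 genes. With a lone library left in a group, its spread was taken from the other group, so this count is not given on leaving out a library.

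Leaving out libraries in turn, the difference in share (vestibular minus cochlear, percentage points) ran from -49.3 to -10.2 for Atp1b1, 1.07 to 10.9 for Atp1b2 and 9.14 to 38.4 for Atp1b3. Deviations of same-numbered libraries had a correlation of 0.04 across genes. With only 2 libraries in a group, this value cannot decide whether the numbers 1 and 2 pair the samples. With the replicate block, 0 genes were called and 1887 had an unadjusted p under 0.05, against 2398 without it. Scalings moved the median of all genes to between -0.04 and 0.03. The number of fragments limits Kcne1 and Bsnd, which are near 0 in 3 libraries.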

Other observations

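Among other markers of dark and marginal cells, transcription factor genes differed in pattern. Lmx1a, an otic epithelial factor, stood at 4.28 and 0.842 FPKM in vestibular cultures against 52.1 and 47.0 in cochlear cultures (log2 difference -4.02, SE 0.57, limma adjusted p 0.123). Esrrb, a nuclear receptor gene needed for marginal cell identity, was highest in vestibular 2 at 2.90 FPKM, with 0.420 in vestibular 1, 0.185 in cochlear 1 and 0.497 in cochlear 2, so its highest library was that of Kcne1 and Bsnd. Car12, a carbonic anhydrase gene, stood at 6.98 and 2.93 against 28.8 and 17.2 FPKM (-2.05, SE 0.47, adjusted p 0.194).

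Sox10, listed here with glia and also expressed in otic epithelium and melanocytes, stood at 37.7 and 15.5 FPKM in vestibular cultures against 108 and 100.4 in cochlear cultures (log2 difference -2.06, SE 0.46, limma adjusted p 0.189). It was lowest in vestibular 2, where the melanocyte genes Dct and Mlana were highest.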
